A study of Populus cathayana with 4 samples.

Results

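The AP2/ERF genes are plant transcription factors that share the AP2 domain, a short DNA-binding fold. Here they are the table entries whose best database hit names AP2/ERF and that had at least 10 tags over the 4 libraries. These were 55 of 10741 tested entries, called genes below, and another 35 entries with the same wording fell under the minimum, so that 90 of the table's 19100 entries carried it. All 55 have the same description, an AP2/ERF domain-containing factor of Populus trichocarpa, which does not say to which branch of the family a gene belongs. The deposited gene ontology terms placed 53 of the 55 under DNA-dependent transcription. The 55 identifiers stand for 55 loci, and 54 different best hits were found among them, since Potri.008G166200.1 and Potri.010G072300.1 share theirs.

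In plants, proteins of the ERF branch bind the GCC box in promoters of defence genes and act late in ethylene signalling, and proteins of the DREB branch bind the dehydration-responsive element in genes for cold, drought and salt stress. Other branches act in the growth of organs and flowers. Ethylene is made from S-adenosylmethionine through 1-aminocyclopropane-1-carboxylate, is sensed by receptors that act through the kinase CTR1, and reaches the ERF genes through EIN2 and the EIN3 factors. Many ERF genes also respond to wounding and jasmonate. These roles were worked out largely in Arabidopsis.

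The data are tag counts from the fourth full expanded leaves of Populus cathayana, a dioecious poplar. The identifiers are those of Populus trichocarpa. Cuttings of each sex grew for 100 days under decreased or under ambient solar UV-B radiation, and the RNA of 9 plants of each group was pooled into 1 library, so there is no replicate of any group. Each sex thus has a reduced library, its control, and an ambient library, and all plants stood in a greenhouse. Each library ran on its own flow cell lane, so lane and group cannot be told apart. A short tag beside an NlaIII site stands for 1 transcript, so counts of different genes need no length correction, although a transcript without such a site is missed. The labels mention 3 biological replicates of the extraction but list 1 library per group.

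Library totals ran from 4207 to 4393 in units of 1000 tags, of which 14.4% to 17.2% lie in the table, with the highest share in the male ambient library. Leaf marker genes for the light-harvesting complexes and plastocyanin, 17 in all, summed to 6873 to 8613 CPM (the count scaled to the library total), so markers of the labelled tissue were present. Markers of other cell states were lower. The 15 xylem genes (laccases, fasciclin-like proteins and cellulose synthases) summed to 20.3 to 110 CPM and the 21 genes for cyclins, histones and inhibitors of cyclin-dependent kinases to 119 to 202 CPM, and no entry matched the phloem words. Fewer cells of a type and less RNA per cell cannot be told apart in such pools. A gene is called in a comparison when an exact test on its counts has a Benjamini-Hochberg adjusted p below 0.001 over all 10741 genes and the CPM differ at least 2-fold. The test compares pooled libraries, not conditions, and both it and the 95% intervals cover counting error only.

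The summed level of the family was highest in the male ambient library. Its 55 genes summed to 416 CPM in the male reduced library (95% interval 397 to 435, exact binomial) and 649 CPM in the male ambient one (625 to 674). In females they summed to 334 CPM (318 to 352) under reduced and 355 CPM (338 to 374) under ambient UV-B. The male ambient library therefore stood apart, while the female libraries overlapped in their intervals. The sum was 1.56-fold higher under ambient UV-B in males (interval 1.47 to 1.66) and 1.06-fold in females (0.989 to 1.14). Marker sums also moved between these libraries. With UV-B in males the sum for cyclins and histones was 1.42-fold higher (1.27 to 1.60), at 119 and 169 CPM, and in females it was 0.802 of the reduced level. Of its male tags, 186 of 510 under reduced and 339 of 712 under ambient UV-B were from 1 histone H4 entry, Potri.007G013300.1. In males 16 of the 21 genes had a positive ratio and 5 a negative one. The leaf marker sum was 1.15-fold higher with UV-B in males and 0.822 of the reduced level in females. The xylem sum was 110 and 75.8 CPM in males and 75.1 and 20.3 CPM in females, so that under ambient UV-B the female sum was 0.268 of the male one (0.209 to 0.341). Their part in the AP2/ERF sums was not tested. With TMM scaling, which lowers all values of the male ambient library relative to the male reduced one, the male AP2/ERF ratio was 1.35 and that of the cyclin and histone sum 1.23. Between the sexes, the female AP2/ERF sum was 0.805 of the male sum under reduced UV-B (0.750 to 0.863) and 0.548 under ambient UV-B (0.514 to 0.583).

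**Figure D1:**
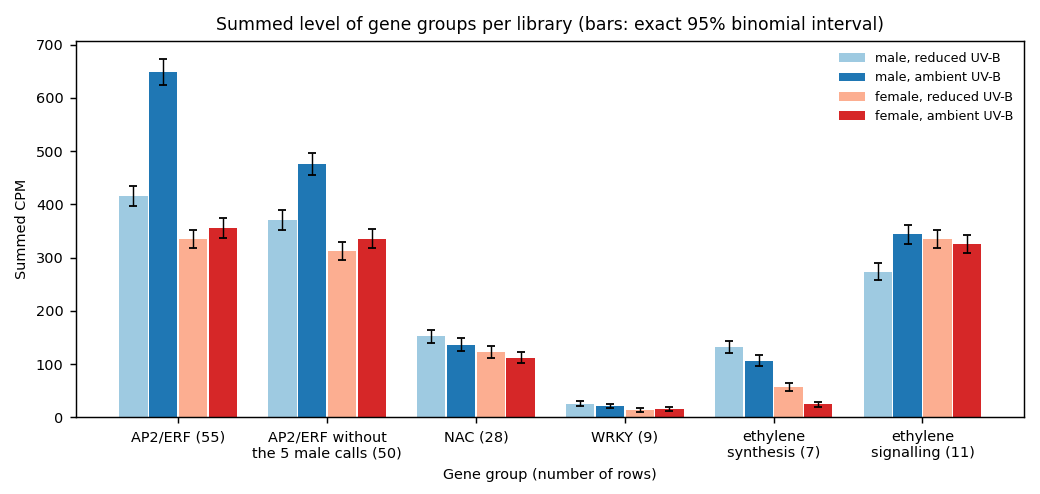
Summed level in CPM (y axis, from 0) of 6 gene groups (x axis, with the number of genes) in the 4 libraries, with exact 95% binomial intervals as error bars. The AP2/ERF sum reached 649 CPM in males under ambient UV-B and lay between 334 and 416 CPM in the other libraries. The ethylene signalling sum was also highest there, at 344 CPM against 274 to 334 CPM, while the NAC, WRKY and ethylene synthesis sums were not. The ethylene synthesis group includes S-adenosylmethionine synthetases and is not specific to ethylene.

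In all, 17 of the 55 genes were called in at least 1 comparison (30.9%), against 19.6% of all tested genes. A few genes carried much of the sum. The 5 most abundant genes of each library held 50.7% and 52.2% of the family's tags in males, under reduced and ambient UV-B in that order, and 56.2% and 55.5% in females. Totals per gene over the 4 libraries ran from 10 to 1443 tags, with a median of 39, against 47 for all tested genes. Only 16 of the 55 genes had 100 tags or more. In all, 42 were listed in every library, and 13 were at a listed 0 in at least 1.

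Potri.001G079600.1 was the most abundant in each library, with 280 and 468 tags in males, under reduced and ambient UV-B in that order, and 330 and 365 in females. The male ambient library was the highest. Its male log2 ratio for UV-B of 0.77 (interval 0.55 to 0.99) stayed under the 2-fold limit. The second, Potri.003G151000.1, annotated with two-component signalling, had 163 and 196 tags in males and 128 and 195 in females. Neither gene was called in any comparison.

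**Figure D2:**
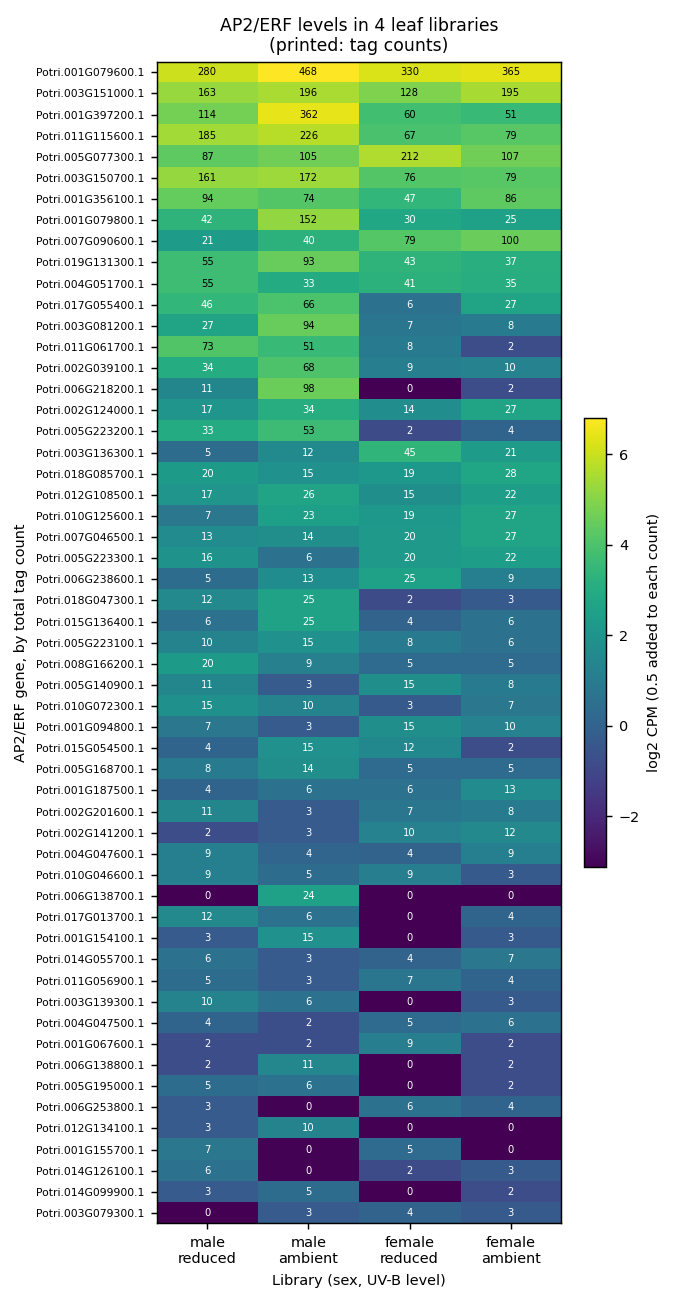
Level of each of the 55 AP2/ERF genes (rows, ordered by total tag count) in the 4 libraries (columns), coloured by log2 CPM with 0.5 added to each count and with the tag count printed in each cell. Potri.001G079600.1, in the top row, ranges from 280 to 468 tags, and Potri.006G138700.1 has 24 tags in males under ambient UV-B and 0 elsewhere.

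With ambient UV-B in males, 5 AP2/ERF genes were called higher and 0 lower. The 5 called genes are 9.09% of the family, where 3.92% of all tested genes were called, 2.46% higher and 1.46% lower. With a coefficient of variation of 0.3 assumed between pools, an edgeR fit called 0 of the 55 genes and 5 of all tested genes. The genes are Potri.006G218200.1, Potri.001G079800.1, Potri.003G081200.1, Potri.001G397200.1 and Potri.006G138700.1. The median log2 ratio over the 55 genes, with 0.5 added to each count, was 0.51, against 0.11 over all tested genes, and 35 genes had a positive ratio and 20 a negative one. TMM scaling lowered every ratio of this comparison by 0.21, to medians of 0.30 and -0.10.

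Calls need enough tags, so the share was also taken among genes with at least 50 tags in the higher library of the pair. There 4 of 16 AP2/ERF genes were called higher and 0 lower, against 9.3% and 4.41% of 2474 tested genes, 13.7% in all. TMM factors, size factors and the sum of listed tags each left the same 5 genes called. With TMM factors 117 of all tested genes were called higher (1.09%) and 232 lower, against 264 and 157 with the library totals.

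Potri.001G397200.1, annotated with activation of innate immune response and ethylene mediated signalling, had 114 tags in males under reduced UV-B and 362 under ambient UV-B, and 60 and 51 tags in females. The male ambient library was above the other 3, which lay within 51 to 114. Its male log2 ratio was 1.69 (interval 1.38 to 2.01, adjusted p = 6.35e-30 by the exact binomial test). In females the ratio was -0.21 (-0.78 to 0.35).

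Potri.001G079800.1 had 42 and 152 tags in males and 30 and 25 in females, under reduced and ambient UV-B in that order. Again the male ambient library was the single high one. The male log2 ratio was 1.88 (1.38 to 2.41, adjusted p = 1.65e-14 by the exact binomial test), and the female ratio was -0.24 (-1.07 to 0.57).

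Potri.006G218200.1 had 11 and 98 tags in males and 0 and 2 in females. It was low in all but the male ambient library, with a male log2 ratio of 3.18 (2.28 to 4.23), the largest among genes with at least 50 tags in the higher male library. Potri.003G081200.1, annotated with the response to carbohydrate stimulus, had 27 and 94 tags in males and 7 and 8 in females, with a male ratio of 1.83 (1.19 to 2.50). Both male libraries were above both female ones in these genes. Potri.006G138700.1 had 24 tags in males under ambient UV-B and a listed 0 in the other 3 libraries. With the 0 in males under reduced UV-B set at a floor of 3 tags, its male ratio was 8.14-fold, a value that depends on that floor. Its log2 ratio of 3.03 became 2.81 with TMM factors.

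Together the 5 genes went from 194 to 730 tags in males and from 97 to 86 in females. They were chosen by the male contrast, so their male ratio of 3.83 is a description only. The 50 genes left still summed to more in males under ambient UV-B, at 475 CPM (455 to 497) against 370 CPM (352 to 389), a ratio of 1.28 (1.20 to 1.37), or 1.11 with TMM factors. Beyond the calls, Potri.019G131300.1 had 55 and 93 tags in males and a log2 ratio of 0.78 (0.29 to 1.29), and Potri.002G039100.1 had 34 and 68 tags and a ratio of 1.03 (0.41 to 1.66), with an adjusted p of 0.00692 by the exact binomial test. The lowest male ratio among genes with at least 50 tags in the higher library was that of Potri.004G051700.1, which had 55 and 33 tags (-0.71, interval -1.38 to -0.06) and no call.

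**Figure D3:**
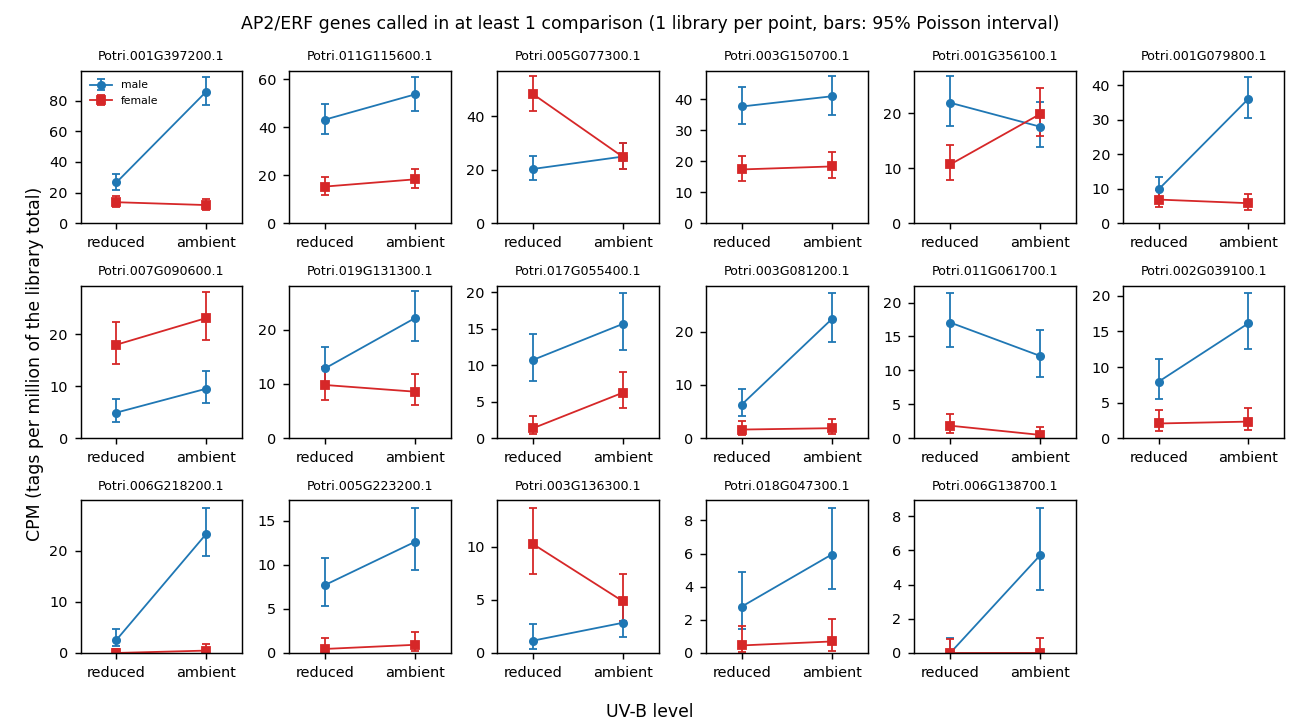
CPM (y axis of each panel, from 0) under reduced and ambient UV-B (x axis) in males (blue circles) and females (red squares) for the 17 AP2/ERF genes called in at least 1 comparison. Each point is 1 library, with a 95% Poisson interval of its count as the error bar. Potri.001G397200.1 goes from 26.6 to 86.0 CPM in males and from 13.7 to 11.8 CPM in females.

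In females, ambient UV-B gave 0 calls among the 55 genes in either direction. Of all tested genes 2.98% were called, 1.46% higher and 1.52% lower, so that few calls among 55 genes would stand at that rate. Among genes with at least 50 tags in the higher library it was 0 of 8, against 5.35% higher and 5.17% lower, 10.5% in all. At an unadjusted p below 0.05 by the exact binomial test there were 8 of 55 AP2/ERF genes, against 2517 of all 10741 tested genes, a lower share. The edgeR fit with the assumed spread called 0 AP2/ERF genes in females, and 3 higher and 11 lower among all tested genes. The median log2 ratio was 0.20, against 0.02 over all tested genes, with 37 ratios positive and 18 negative.

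Some female differences came near a call. Potri.005G077300.1 had 212 tags in females under reduced UV-B and 107 under ambient UV-B, and 87 and 105 in males. The female reduced library was the high one, and the other 3 held 87 to 107 tags. Its female log2 ratio was -0.96 (-1.31 to -0.62), past the p threshold but short of 2-fold. Potri.001G356100.1 had 47 and 86 tags in females and 94 and 74 in males, a female ratio of 0.89 (0.36 to 1.44) and an adjusted p of 0.00684 by the exact binomial test. Potri.017G055400.1 had 6 and 27 tags in females and 46 and 66 in males. Its female ratio was 2.19 (0.89 to 3.76), with an adjusted p of 0.00298 by the exact binomial test.

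Across the 55 genes, 25 had a positive UV-B ratio in both sexes, 8 a negative ratio in both, 10 a positive ratio in males and a negative one in females, and 12 the reverse. Male and female ratios shared a sign in 60.0% of the AP2/ERF genes and in 53.4% of all tested genes. These comparisons share no library. Pearson's r between the ratios was 0.20 over the 55 genes and 0.06 over all tested genes, across genes, which share libraries and are not replicates.

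**Figure D4:**
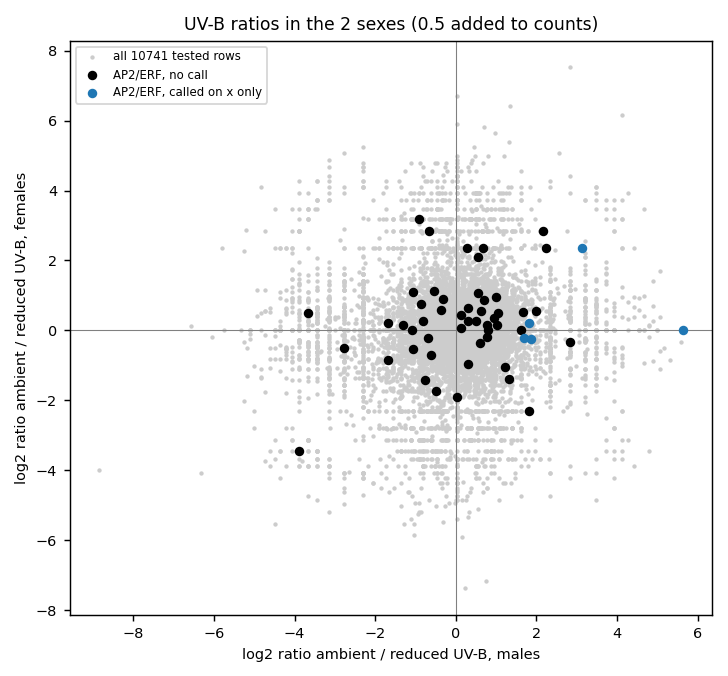
Log2 ratio of ambient to reduced UV-B, with 0.5 added to each count, in males (x axis) and females (y axis) for all 10741 tested genes (grey) and the 55 AP2/ERF genes (black without a call, blue where called in males). The 5 called genes lie at the right, and none of the 55 was called in females.

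The test of the difference between the sexes in their UV-B ratio called 3 AP2/ERF genes, all with the lower ratio in females, and 0 with the higher. The 3 are 5.45% of the family, against 3.05% of all tested genes called, 2.02% lower and 1.03% higher, or 217 and 111 genes, which became 126 and 157 with TMM factors. Among genes with at least 50 tags in a library it was 3 of 17, against 7.03% lower and 3.46% higher. With the assumed spread between pools 0 were called, and over all tested genes 2 higher and 2 lower. At an unadjusted p below 0.05 this exact test took 11 of the 55 genes, against 2372 of all 10741 tested genes, a like share. For Potri.001G397200.1 the log2 ratio of ratios was -1.90 (interval -2.56 to -1.25), for Potri.001G079800.1 -2.12 (-3.10 to -1.14) and for Potri.005G077300.1 -1.26 (-1.81 to -0.71). The first 2 were called higher with UV-B in males, and the third had the lower female ratio described above. Potri.001G397200.1 alone kept the call with TMM factors, size factors and listed sums. For Potri.001G079800.1 the adjusted p of the exact test became 0.00131 with TMM factors, and for Potri.005G077300.1 0.00240. The test did not call the 3 other genes called in males, which had few female tags. The family's median ratio of ratios, -0.06, changed sign to 0.15 with TMM factors.

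More AP2/ERF genes differed between the sexes than with UV-B. Under reduced UV-B 7 of the 55 genes were called lower in females (12.7%) and 3 higher (5.45%), where 10.6% of all tested genes were called, 5.9% lower and 4.66% higher. Under ambient UV-B 13 were lower in females (23.6%) and 1 higher (1.82%), against 7.69% and 3.66% of all tested genes, 11.3% in all. With the assumed spread between pools these became 0 lower and 0 higher under reduced UV-B, and 2 lower and 0 higher under ambient UV-B. Over all tested genes they became 57 lower and 28 higher under reduced UV-B, and 77 lower and 46 higher under ambient UV-B. Among genes with at least 50 tags in the higher library, 11 of 16 were lower and 1 higher under ambient UV-B, against 20.6% and 9.16% of 2599, 29.8% in all. Under reduced UV-B 4 of 11 were lower and 2 higher, against 16.3% and 14.4% of 2459, 30.7% in all. The comparison under ambient UV-B uses the same male library as the male UV-B comparison, so the 5 genes called there in males are also among its 13. TMM factors left 11 lower, without Potri.003G150700.1 and Potri.017G055400.1, while over all tested genes they gave 624 lower (5.81%) and 551 higher, against 826 and 393 with the library totals.

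In all, 6 genes were lower in females at both UV-B levels, in comparisons that share no library, and 1 was higher in both. They are 10.9% and 1.82% of the family, while 3.23% and 1.69% of all tested genes were called lower or higher at both levels. These shares use the library totals. With TMM factors, size factors or listed sums, Potri.003G150700.1 and Potri.017G055400.1 lost the call under ambient UV-B and so were not lower at both levels. Potri.011G115600.1, annotated like Potri.001G397200.1 with innate immune and ethylene signalling terms, had 185 and 226 tags in males under reduced and ambient UV-B and 67 and 79 in females. Both male libraries were above both female ones, with log2 ratios of females to males of -1.50 (-1.93 to -1.09) under reduced and -1.56 (-1.94 to -1.18) under ambient UV-B. Potri.003G150700.1 had 161 and 172 tags in males and 76 and 79 in females, with both male libraries above both female ones.

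The widest sex differences were in genes that were nearly unlisted in females. Potri.011G061700.1 had 73 and 51 tags in males and 8 and 2 in females, with ratios of -3.23 (-4.49 to -2.17) under reduced and -4.71 (-7.80 to -2.79) under ambient UV-B. Potri.005G223200.1, annotated with signal transduction, had 33 and 53 tags in males and 2 and 4 in females, with ratios of -4.08 (-7.19 to -2.11) and -3.77 (-5.70 to -2.33). These few female tags leave wide intervals. Both male libraries were above both female ones in these genes, as in 29.1% of all tested genes. Without replicates, whether the groups overlap cannot be seen. Potri.002G039100.1, with 9 and 10 tags in females, and Potri.017G055400.1 were the others lower at both levels.

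Under ambient UV-B, females were also called lower in the 5 genes called with UV-B in males and in Potri.019G131300.1 and Potri.018G047300.1. Potri.006G218200.1 had the lowest ratio, -5.65 (-8.72 to -3.76), on 2 female tags against 98. Potri.019G131300.1 had 93 tags in males and 37 in females (-1.37, -1.96 to -0.81), and Potri.018G047300.1 had 25 and 3 (-3.10, -5.47 to -1.39). Of these 7 genes, the UV-B ratio was called different between the sexes in Potri.001G397200.1 and Potri.001G079800.1. A missed call under reduced UV-B does not show equal levels there, and the ratio of Potri.003G081200.1 under reduced UV-B was -1.98 (-3.43 to -0.75). Potri.001G356100.1 was called lower in females under reduced UV-B, with a ratio of -1.04 (-1.57 to -0.52). Potri.012G134100.1, with 3 and 10 tags in males, was at a listed 0 in both female libraries and called in neither comparison.

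Against this direction, Potri.007G090600.1 was higher in females at both levels. It had 21 and 40 tags in males and 79 and 100 in females, so both female libraries were above both male ones. The ratios were 1.87 (1.17 to 2.64) under reduced and 1.28 (0.74 to 1.85) under ambient UV-B. Potri.005G077300.1 and Potri.003G136300.1, the latter annotated with leaf (phyllome) development, were higher in females under reduced UV-B. Potri.003G136300.1 had 45 and 21 tags in females and 5 and 12 in males, with a ratio of 3.13 (1.80 to 4.82) under reduced UV-B and 0.77 (-0.32 to 1.92) under ambient UV-B.

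Over the whole family, both male libraries were above both female ones in 24 of 55 genes (43.6%), against 29.1% of all tested genes, and both female libraries were above in 8 (14.5%), against 21.8%. Males under ambient UV-B were the highest library for 25 genes (45.5%), against 31.9% of all tested genes. These counts use the library totals and were not repeated with TMM factors. Under ambient UV-B the ratio of females to males was negative in 36 of the 55 genes, and in 31 with TMM factors. Over all tested genes it was negative in 6095, and in 5161 with TMM factors.

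**Figure D5:**
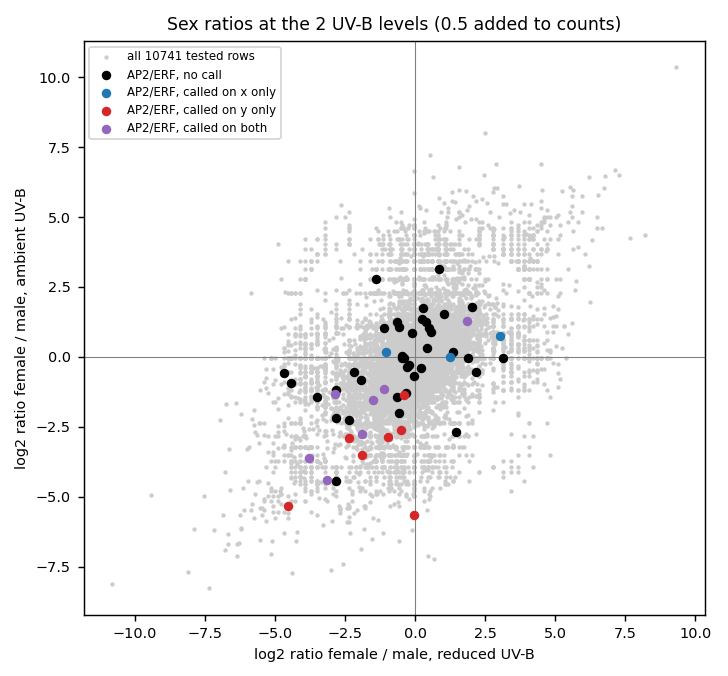
Log2 ratio of females to males, with 0.5 added to each count, under reduced (x axis) and ambient UV-B (y axis) for all 10741 tested genes (grey) and the 55 AP2/ERF genes, coloured by the comparison in which they were called. Most called genes lie below 0 on the y axis: 13 were lower and 1 higher in females under ambient UV-B.

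Which of the AP2/ERF genes belong to the ERF branch, the one placed late in ethylene signalling, is not known here. The ethylene signalling list held 11 genes for receptors, CTR1, EIN2, EIN3-type factors and EIN3-binding F-box proteins. Of these 0 were called in any comparison, where 19.6% of all tested genes were called in at least 1. Their sum was 274 and 344 CPM in males and 334 and 326 CPM in females. The most abundant, the EIN3-type Potri.004G197400.1, had 576 and 716 tags in males and 548 and 703 in females. The EIN3-binding F-box gene Potri.006G254100.1, of a family that removes EIN3, had 307 and 391 tags in males and 506 and 372 in females. A missed call does not show equal levels.

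The 7 entries listed for ethylene synthesis include synthetases of S-adenosylmethionine, the starting compound, so the list is not specific to ethylene. In males under reduced UV-B, 403 of its 563 tags were from 1 such entry, Potri.013G004100.1. Among the 7 entries, more differed between the sexes. Under reduced UV-B 3 were lower in females and 0 higher (42.9%, against 10.6% of all tested genes). Under ambient UV-B 4 were lower and 2 higher (85.7%, against 11.3%). S-adenosylmethionine synthetase Potri.013G004100.1 had 403 and 272 tags in males and 176 and 57 in females, and it was called lower with UV-B in females. An entry described as 1-aminocyclopropane-1-carboxylate, Potri.001G099400.2, had 46 and 97 tags in males and 11 and 4 in females, and was called higher with UV-B in males. A second entry of the same locus, Potri.001G099400.1, had 0 and 0 tags in males and 13 and 16 in females, so that the locus as a whole cannot be given a direction from either entry alone. Potri.002G224100.1, of the same description, had 82 and 37 tags in males and 4 and 0 in females, and was called lower with UV-B in males.

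The table held 5 genes of kinds that AP2/ERF factors are known to act on. Of these, 0 were called with UV-B in either sex, against 3.92% of all tested genes in males and 2.98% in females. Lower in females at both levels were 2 (40%, against 3.23% of all tested genes). The thaumatin-like Potri.001G102400.1, a pathogenesis-related protein, had 716 and 869 tags in males and 92 and 147 in females, and chitinase Potri.006G188400.1, which breaks down fungal walls, had 55 and 52 tags in males and 11 and 11 in females. Dehydrin 2, Potri.002G013200.1, a stress protein, had 9 and 29 tags in males and 4 and 7 in females without a call. A second chitinase, Potri.001G341700.1, had more tags in females, with 3 and 2 in males and 8 and 6 in females. The glucanase-like Potri.002G059600.1 had 11 and 4 tags in males and 9 and 4 in females. Neither was called.

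Wound and jasmonate genes also had their highest sum in the male ambient library. The 16 genes for Kunitz-type inhibitors, polyphenol oxidases, allene oxide synthases and a lipoxygenase summed to 464 and 968 CPM in males and 115 and 107 CPM in females. Most male ambient tags of the list came from 2 Kunitz-type inhibitors. Potri.019G124400.2 had 372 and 2014 tags in males and 76 and 26 in females, and Potri.019G124600.1 had 476 and 1033, and 129 and 129. Polyphenol oxidase Potri.001G388900.1 went the other way in males, with 626 and 340 tags, and had 123 and 82 in females. With UV-B 4 were called higher and 1 lower in males (31.25%, against 3.92% of all tested genes). In females 3 were called higher and 2 lower (31.25%, against 2.98%). Under reduced UV-B 8 were lower in females and 0 higher (50%, against 10.6% of all tested genes). Under ambient UV-B 9 were lower and 1 higher (62.5%, against 11.3%). Their part in the AP2/ERF result was not tested.

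Lists of 3 other transcription factor families were set beside the AP2/ERF genes. Of 28 NAC genes, 0 were called higher and 2 lower with UV-B in males (7.14%, against 3.92% of all tested genes) and 1 in each direction in females (7.14%, against 2.98%). Between the sexes 2 NAC genes were lower in females and 0 higher under reduced UV-B (7.14%, against 10.6%), and 2 lower and 1 higher under ambient UV-B (10.7%, against 11.3%). For the difference in response 1 NAC gene was called higher (3.57%, against 3.05% of all tested genes called). Of 9 WRKY genes, 0 were called with UV-B in either sex, against 3.92% of all tested genes in males and 2.98% in females. Under reduced UV-B 1 was lower in females (11.1%, against 10.6% of all tested genes called). The 4 genes of the MYB list, of which 2 are single-myb histones, had 0 calls in any comparison. Of all tested genes 19.6% were called in at least 1. The MYB sum was 5.14 and 9.03 CPM in males and 5.46 and 6.24 CPM in females, also highest in the male ambient library. Another 9 entries are described as AP2 domain-containing factors without the ERF wording. None was called with UV-B. These entries summed to 93.6 and 114 CPM in males and 42.8 and 61.3 CPM in females, again highest in the male ambient library. The most abundant, Potri.010G129200.1, had 281 and 349 tags in males and 63 and 93 in females. It was the single one called between the sexes, lower in females at both levels (11.1%, against 3.23% of all tested genes).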

How the data were processed

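The authors extracted and counted the tags with the Illumina pipeline, per the labels' protocols. Raw tag counts stand beside values headed TPM in the deposited table, and the headings print each library's total, per the file headers. The values headed TPM are CPM: 100% of the deposited CPM values were within 0.01 of the count over that total. How tags were matched to genes, on which build and strand, no source used here states, so tags of near-identical copies may be split between entries. No count of 1 occurs in the table (0 cases), so a listed 0 can stand for 1 tag.

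Genes with under 10 counts over the 4 libraries were left out. Pairs of libraries were compared with an exact two-sided conditional binomial test given the header totals (scipy 1.17.1), and the difference in response with an exact conditional test on the noncentral hypergeometric distribution. A called gene had a Benjamini-Hochberg adjusted p below 0.001 over all tested genes and a CPM ratio of at least 2, with a listed 0 set at 3 counts. Medians of log2 ratios use 0.5 added to each count. Tags were copied by PCR without molecular identifiers, so intervals cover counting error only. The tests were tried on simulated counts that held counting error only. That trial had no spread between pools, so it says nothing of how the calls stand up to such spread. TMM factors and the fit with an assumed spread came from edgeR 4.0.16, size factors from DESeq2 1.42.0.

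Genes named are those called in any comparison, the 5 most abundant, the extreme ratios of each pair among genes with at least 50 counts, and those listed at 0 in 1 sex with 10 or more counts in a library of the other. Potri.008G166200.1, Potri.010G072300.1 and all genes outside the family were named after their values were seen. The members and word lists were chosen with earlier results of these data known. Sequences were not used here.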

Additional observations from a re-analysis of the deposited data

Results flagged for a closer look

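The UV-B ratio differed between the sexes for 3 AP2/ERF genes by the exact test of the difference itself, with an adjusted p below 0.001 over all tested genes. For Potri.001G397200.1 the female log2 ratio minus the male one was -1.90, with an adjusted p of 1.10e-07 by that exact test. For Potri.001G079800.1 it was -2.12, with an adjusted p of 0.000196 by the same exact test. For Potri.005G077300.1 it was -1.26, with an adjusted p of 0.000103 by the same exact test. Each rests on 1 pooled library per group. Of the 3, only Potri.001G397200.1 kept the call with TMM factors, size factors and listed sums, and 0 kept it with the assumed spread between pools. No group has enough libraries to look for a library that stands apart within it.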

How the results depend on the processing

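No paired analysis was possible because each group has 1 library. Without replicates the spread between pools is unknown, and it limits every call. Assuming a coefficient of variation of 0.3, AP2/ERF calls fell to 0 higher with UV-B in males, to 0 higher and 0 lower in females against males under reduced UV-B, to 0 higher and 2 lower under ambient UV-B, and to 0 lower for the difference in response. The 2 left were Potri.006G218200.1 and Potri.011G061700.1. This fit changed both the test and the spread, and the cause was not tested. For the difference in response, TMM factors, size factors and listed sums each left 1 lower, and size factors and listed sums each gave 1 higher, Potri.001G356100.1. At an adjusted p below 0.05, there were 9 higher with UV-B in males, 1 higher and 1 lower in females, 14 lower in females under reduced UV-B, 2 higher under ambient UV-B, and 1 higher and 6 lower for the difference in response. Without a fold limit, Potri.005G077300.1 was 1 call lower with UV-B in females. For neither of these settings was the share of all tested genes taken, so these counts cannot be set beside it. The other 81 counts of calls stayed within 1.5 times the reported ones. Many of these set 0 beside 0, and keeping 1 entry per locus left the members as they were, since they are 55 loci. Low counts limit what can be seen: 39 of the 55 genes had under 100 tags in all.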

Other observations

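Some AP2/ERF entries have neighbouring identifier numbers, and these pairs were picked after their values were seen. Potri.006G138700.1 had 24 tags in males under ambient UV-B and 0 elsewhere, and Potri.006G138800.1 had 11 there and 0 to 2 elsewhere. Potri.012G134000.1, under the minimum, had 9 tags in that library and 0 elsewhere, and Potri.012G134100.1 had 10 there, 3 in males under reduced UV-B and 0 in females. Potri.005G223200.1 had 33 and 53 tags in males against 2 and 4 in females. Of its neighbours, Potri.005G223100.1 had 10 and 15 against 8 and 6, also with both male libraries above both female ones, while Potri.005G223300.1 had 16 and 6 against 20 and 22. Potri.001G079600.1 was the most abundant member, and Potri.001G079800.1 was called with UV-B in males. Whether tags could be shared within a pair was not tested.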
